A study of Mus musculus with 106 samples.

Results

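Arpp19, Arpp21, Ensa, Pcp4 and Pcp4l1 are 5 of the 55401 mouse genes counted in brain libraries from a mouse model of Huntington's disease (HD). They belong to the cyclic AMP-regulated phosphoproteins and to the small proteins of the PCP4 family. They were picked by name because Arpp19 and Arpp21 were lower in HD than in control libraries of ribosome-bound RNA from cerebral Gad2 neurons. Ensa is a relative of Arpp19, and Pcp4 and Pcp4l1 form a family apart. That contrast is therefore given for them as a description and was not tested. The control libraries of the same IPs also enter the levels and the comparison with total RNA below, so tests that use them are not independent of the choice. The same mice also gave the cerebellar Gad2 IPs and the total RNA of the Gad2 line.

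Arpp19 and Ensa encode closely related inhibitors of the phosphatase PP2A-B55, which they bind once the Greatwall kinase (gene Mastl) has phosphorylated them. Both are also targets of protein kinase A (PKA). Arpp21 is a PKA target abundant in striatal projection neurons, whose short form binds calmodulin and whose long form carries an R3H domain and binds RNA. Pcp4, abundant in Purkinje cells, and its relative Pcp4l1 are short IQ-motif proteins, and Pcp4 speeds the exchange of calcium on calmodulin.

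HD mice (Hdh Q7/Q200) and control littermates (Hdh Q7/Q7) on a 129S4 background were taken at 9 months. Every mouse carried 1 copy of a Cre allele and 1 of RiboTag, which tags the ribosomal protein Rpl22 with HA in the cells that express Cre. Cre came from Gad2-IRES-Cre (GABAergic neurons), PV-IRES-Cre (parvalbumin neurons), vGluT2-IRES-Cre (glutamatergic neurons with that transporter) or an SST line (somatostatin neurons), which the published account of the study leaves out. Litters and allele copies are thus described for the other lines only. Control SST mice had codes of the BR and Z series, and HD SST mice of the BR series alone. Ribosomes were immunoprecipitated (IP) from the cerebrum without the olfactory bulb in all 4 lines and from the cerebellum in the Gad2 and vGluT2 lines. Total RNA of the homogenates was sequenced beside them. In all there were 106 libraries (67 IP, 39 total RNA) of 45 mice, with 4 to 6 libraries per IP group and 3 or 4 per total RNA group. The PV IPs pooled duplicate IPs of 1 homogenate. Sequencing of 3 libraries failed at first and was repeated in a later run with longer reads. By their labels all 3 were HD IPs (PV, cerebral vGluT2 and cerebellar Gad2), so run and read length differ in part with genotype there. A RiboTag IP reports the cells that express Cre, with an admixture of RNA from other cells. Library totals ran from 21905238 to 107753596 counts (median 35866734), and group medians from 29017536 to 45464404. The lowest count of any of the 5 genes in a library was 325, so depth was not short for them.

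The labels were checked against the gene that drives each Cre. In control mice, Gad2 was enriched in cerebral Gad2 IPs over total RNA by a log2 of 2.02 ± 0.206 (SE), Pvalb in PV IPs by 2.14 ± 0.201, Sst in SST IPs by 2.59 ± 0.246 and Slc17a6 (vGluT2) in cerebral vGluT2 IPs by 1.11 ± 0.330. In the cerebellum Gad2 was enriched by 1.29 ± 0.187, and Slc17a6 by 1.22 ± 0.610, which did not pass the test (edgeR adjusted p 0.101). Granule cell markers were high in the cerebellar vGluT2 IPs: the summed level of 7 of them was 11733 ± 1248 CPM (SD) in control IPs, with Cbln3 the most abundant, against 5618 ± 871 in control total RNA of the same line. These 2 sums were normalised over different sets of libraries. Purkinje cell markers (7) were high in the cerebellar Gad2 IPs, at 22001 ± 2239 CPM against 6084 ± 591 in total RNA, Itpr1 most abundant.

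Some libraries stood apart. HD replicate 3 of the PV IPs held cerebellar transcripts: its Purkinje cell markers summed to 5876 CPM and its granule cell markers to 822, against group means of 1247 and 209 in control PV IPs. Values of the members in the PV comparison are given below with and without it. In cerebellar total RNA of the vGluT2 line the HD libraries differed from their controls in composition: Gad2 was at 47.6, 47.0, 38.4 and 47.5 CPM against 135, 122, 103 and 162. Calls that rest on these libraries are also given for each line apart. CPM of a comparison are normalised over its own libraries, so a group's values differ slightly between comparisons.

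All 5 genes are protein-coding and passed the filter on mean count in every comparison. In GRCm38 coordinates they lie at chr9:75037614-75060313 (plus strand) for Arpp19, chr9:112065091-112235938 (minus strand) for Arpp21, chr3:95624993-95632102 (plus strand) for Ensa, chr16:96467606-96525793 (plus strand) for Pcp4 and chr1:171173262-171196268 (minus strand) for Pcp4l1. Arpp21 overlaps the opposite-strand transcripts 2900079G21Rik, at 5.49 CPM over all libraries, and 2310075C17Rik, at 0.0502 CPM. It also overlaps Mir128-2, a microRNA with 0 counts, but libraries made from mRNA do not measure mature microRNAs. Igsf5, on the strand of Pcp4, was at 0.0200 CPM.

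The coding sequences show the family ties. Arpp19 and Ensa share 245 of 335 aligned coding bases (73.1%), and Pcp4 and Pcp4l1 share 124 of 181 (68.5%). The Greatwall site of Arpp19 (coding bases 178 to 195 of transcript Arpp19-201) and of Ensa (193 to 210 of Ensa-201) differ in 3 of 18 bases, and 26 of the 30 bases shown are alike. The start of the IQ motif of Pcp4 (136 to 153) and Pcp4l1 (154 to 171) is less alike, with 11 of 18 site bases and 18 of 30 in all. No Greatwall site was found in Arpp21. The stretches below show these sites, and capitals mark the site codons.

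Arpp19: aagtatTTTGATTCTGGGGACTACaacatg

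Ensa: aagtacTTTGACTCAGGAGACTACaacatg

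Pcp4: gtggccATTCAGTCTCAGTTCAGAaaattc

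Pcp4l1: cttgcaATCCAGGGCAAGTTCCGGcgattc

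Per kilobase of exon, Pcp4 was the most abundant of the 5 in 4 of 6 control IP groups: 1718 ± 458 CPM per kb (mean ± SD) in cerebellar Gad2 IPs, 646 ± 94.1 in cerebral Gad2 IPs, 407 ± 113 in cerebral vGluT2 IPs and 44.5 ± 15.4 in cerebellar vGluT2 IPs, where Ensa stood beside it at 43.8 ± 6.75. Pcp4l1 was highest in the interneuron IPs, at 309 ± 41.1 against 143 ± 33.0 for Pcp4 in PV IPs and at 146 ± 21.2 against 134 ± 37.9 in SST IPs, within the SD there. Per kb of the longest transcript the order in SST IPs turned, with Pcp4 at 215 and Pcp4l1 at 146. Arpp21 was lowest per kb in every group, but its annotated exons are long (17428 bases, against 5320 in its longest transcript). Per kb of the longest transcript it reached 157 in cerebral Gad2 IPs, above Arpp19 (93.1) and Ensa (91.6), so the order among the 5 depends in part on the length used.

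**Figure D1:**
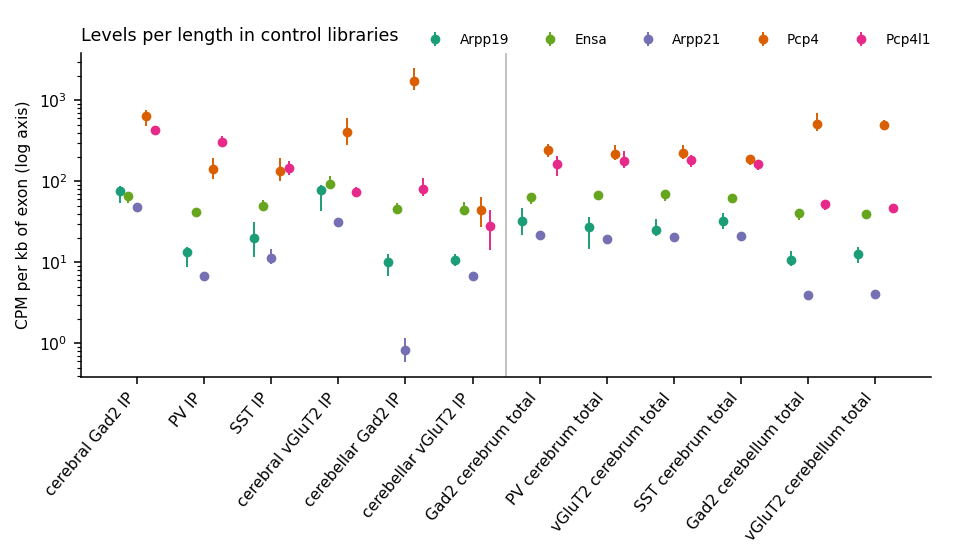
Level per kilobase of union exon length of the 5 genes in the control IP and total RNA groups. Points are means and bars run from the lowest to the highest library.

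Within each gene, levels across the 6 control IP groups set the cell types apart by 7.72 times for Arpp19, 58.05 for Arpp21, 2.21 for Ensa, 38.6 for Pcp4 and 15.6 for Pcp4l1. Neighbouring groups in each order were compared by exact permutation of the libraries with Benjamini-Hochberg adjustment over 25 pairs. Cerebral and cerebellar IPs of a line share mice, which this test does not use. The cerebral Gad2 controls took part in the choice of the genes, so steps that involve them are not independent of it. Arpp19 was highest in cerebral vGluT2 (389.7 ± 92.2 CPM, SD) and cerebral Gad2 IPs (377 ± 60.6), which were not told apart (adjusted permutation p 0.924). It then fell to SST (99.0 ± 37.1; adjusted permutation p 0.00541), and PV (66.2 ± 11.8), cerebellar vGluT2 (53.6 ± 7.77) and cerebellar Gad2 (50.5 ± 11.5) were not told apart from their neighbours. Without control SST replicate 3 the SST to PV step, at 0.70, would pass (adjusted permutation p 0.00992), and without control PV replicate 6 the step to cerebellar vGluT2, 0.41, would too (adjusted permutation p 0.0132).

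Ensa had the flattest profile: cerebral vGluT2 493.04 ± 63.3 CPM, cerebral Gad2 352 ± 40.4, then SST 266 ± 31.2, with cerebellar Gad2, cerebellar vGluT2 and PV IPs from 245 to 223 not told apart from their neighbours (adjusted permutation p 0.358 to 0.680). Without TMM factors the step of Ensa from cerebral Gad2 to SST IPs no longer passed (0.25, adjusted permutation p 0.0601) and that from SST to cerebellar Gad2 IPs did (0.37, adjusted permutation p 0.0216). Arpp21 showed the widest range, from 834 ± 35.5 CPM in cerebral Gad2 IPs through cerebral vGluT2 (554 ± 47.0) and SST (197 ± 36.3) to cerebellar vGluT2 (119 ± 10.3) and PV (118 ± 8.93), which were not told apart (adjusted permutation p 0.886), and 14.4 ± 3.64 in cerebellar Gad2 IPs. Pcp4 peaked instead in cerebellar Gad2 IPs (1763 ± 469), where Arpp21 is lowest, then cerebral Gad2 (662 ± 96.5) and cerebral vGluT2 (418 ± 116). PV (147 ± 33.9) and SST (138 ± 38.9) were not told apart for Pcp4 (adjusted permutation p 0.680). Cerebellar vGluT2 IPs were lowest in Pcp4 (45.7 ± 15.8). Pcp4l1 ran from cerebral Gad2 (687 ± 55.4) through PV (488 ± 64.9), SST (230.0 ± 33.4), cerebellar Gad2 (126 ± 28.9) and cerebral vGluT2 (116 ± 10.9) to cerebellar vGluT2 (43.9 ± 20.9). Only its step from cerebellar Gad2 to cerebral vGluT2 IPs did not pass (adjusted permutation p 0.680).

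The balance within the related pairs differed between the cell types. Pcp4 exceeded Pcp4l1 per kb by 21.5 ± 1.06 times (SD, n = 6) in cerebellar Gad2 IPs and 5.45 ± 1.01 in cerebral vGluT2 IPs, and stood at 0.465 ± 0.0998 of it in PV IPs. Ensa to Arpp19 was 0.884 ± 0.168 in cerebral Gad2 IPs and 4.65 ± 0.904 in cerebellar Gad2 IPs. Across the 34 control IP libraries, which share brain regions and lines, Arpp19 followed Arpp21 (Pearson r 0.840) and Ensa (r 0.841), while Pcp4 and Pcp4l1 were loosely related (r 0.298). Among 13150 genes the most alike in profile (n = 34 libraries) were Tusc3 for Arpp19 (r 0.960), 2010300C02Rik, Foxp1 and Wipf3 for Arpp21 (highest r 0.971), Ccl27a for Ensa (r 0.956), Agfg2 for Pcp4 (r 0.968) and Scn4b, a sodium channel subunit, for Pcp4l1 (r 0.978).

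IP against total RNA in control mice compares ribosome-bound RNA of the tagged neurons with RNA of the whole tissue. It does not separate the cell type from the binding of ribosomes. Each IP group was set against the total RNA of its brain region from all lines (13 libraries of 4 lines in the cerebrum, 7 of 2 lines in the cerebellum), so most of that total RNA came from other mice. Ratios here and below are log2 ± SE. The share of all genes called by edgeR (quasi-likelihood F test, adjusted over all genes by Benjamini and Hochberg's method) was 62.6% (cerebral Gad2), 69.2% (PV), 61.9% (SST), 64.0% (cerebral vGluT2), 57.1% (cerebellar Gad2) and 56.7% (cerebellar vGluT2), so a call is common here. In cerebral Gad2 IPs 4 of 5 were called: Pcp4 at a log2 of 1.59 ± 0.123, Arpp19 1.37 ± 0.187, Pcp4l1 1.36 ± 0.110 and Arpp21 1.22 ± 0.0628 were enriched (edgeR adjusted p 2.5e-06 or less). Ensa at 0.020 ± 0.0847 was not (edgeR adjusted p 0.852). These control IPs took part in the contrast that chose the genes, so the calls here are not independent of it. PV IPs were poor in Arpp19 (-1.10 ± 0.208), Arpp21 (-1.56 ± 0.0678), Ensa (-0.60 ± 0.0778) and Pcp4 (-0.54 ± 0.145) and rich in Pcp4l1 (0.91 ± 0.115, all 5 called, edgeR adjusted p 0.00255 or less). SST IPs were poor in Arpp21 (-0.81 ± 0.0986), Pcp4 (-0.62 ± 0.165) and Ensa (-0.34 ± 0.0950, 3 of 5 called, edgeR adjusted p 0.00472 or less), while Arpp19 -0.51 ± 0.241 (edgeR adjusted p 0.0727) and Pcp4l1 -0.17 ± 0.134 (edgeR adjusted p 0.273) did not pass. Without control SST replicate 1 Arpp19 passed, at -0.73 (edgeR adjusted p 0.0187).

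In cerebral vGluT2 IPs all 5 were called, with Arpp19 1.40 ± 0.202, Pcp4 0.90 ± 0.144, Arpp21 0.61 ± 0.0693 and Ensa 0.48 ± 0.0793 enriched and Pcp4l1 depleted at -1.23 ± 0.122 (edgeR adjusted p 2.9e-05 or less). In the cerebellum Pcp4 and Pcp4l1 had 1 sign and Arpp21 the other. Cerebellar Gad2 IPs, rich in Purkinje cells, held Pcp4 at 1.77 ± 0.165 and Pcp4l1 at 0.69 ± 0.140 over total RNA and Arpp21 at -2.28 ± 0.142 (3 of 5 called, edgeR adjusted p 5.0e-04 or less), with Arpp19 -0.23 ± 0.169 and Ensa 0.20 ± 0.0998 not called (edgeR adjusted p 0.256 and 0.0925). Ensa was called there without control Gad2 replicate 3, at 0.27 (edgeR adjusted p 0.0347). In cerebellar vGluT2 IPs Pcp4 was depleted to -3.52 ± 0.235 and Pcp4l1 to -0.84 ± 0.246, while Arpp21 was enriched at 0.74 ± 0.0871 (3 of 5 called, edgeR adjusted p 0.00895 or less). Arpp19 -0.17 ± 0.161 and Ensa 0.11 ± 0.108 did not pass there.

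**Figure D2:**
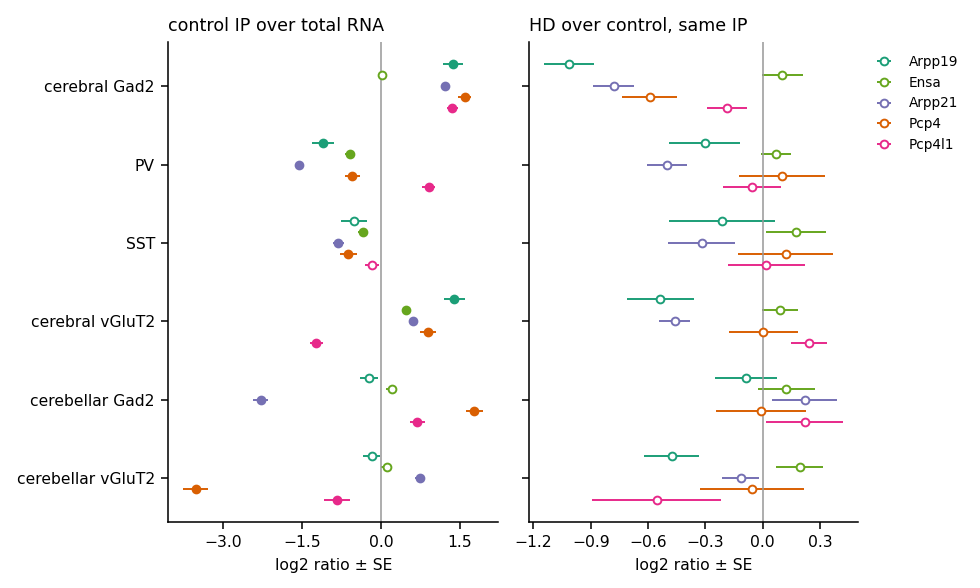
Log2 ratios of the 5 genes, HD over control and control IP over total RNA, with SE as bars. Filled points passed edgeR's test; cerebral Gad2 IPs were not tested for HD.

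For each IP group 3 mice gave both the IP and total RNA, and these alone were also fitted with the mouse as a block. Since this fit drops the other libraries as well, the same 3 mice were fitted with no block, a choice made after seeing the data. Calls were lost in both by Pcp4 in PV IPs (-0.37, edgeR adjusted p 0.0598, and edgeR adjusted p 0.246 with no block), Ensa (-0.26, edgeR adjusted p 0.295, and edgeR adjusted p 0.341 with no block) and Pcp4 (-0.56, edgeR adjusted p 0.0819, and edgeR adjusted p 0.161 with no block) in SST IPs and Ensa in cerebral vGluT2 IPs (0.33, edgeR adjusted p 0.111, and edgeR adjusted p 0.0989 with no block). Pcp4l1 lost its calls in both in cerebellar Gad2 (0.37, edgeR adjusted p 0.0688, and edgeR adjusted p 0.0767 with no block) and vGluT2 IPs (-0.58, edgeR adjusted p 0.140, and edgeR adjusted p 0.337 with no block). Arpp19 in PV IPs kept its call with the block (edgeR adjusted p 0.00534) and missed it with none (-1.06, edgeR adjusted p 0.0551). The genes called in cerebral Gad2 IPs were 9260 in the main fit, 4790 with total RNA of the same line, 2069 with the 3 mice and 2494 with the block, and in cerebellar Gad2 IPs 8214, 6169, 4683 and 4558. Leaving out libraries thus moved these numbers more than the block did.

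In HD cerebral Gad2 IPs, the contrast that chose the genes, Arpp19 was 269 to 439 CPM (median 411) in 6 controls and 167 to 229 CPM (median 182) in 6 HD libraries (log2 -1.02 ± 0.130), with no overlap. Arpp21 was 800.0 to 894 CPM (median 844) and 403 to 618 CPM (median 472) (log2 -0.78 ± 0.107), also without overlap. Pcp4 was 506 to 776 CPM (median 676) and 350.4 to 632 CPM (median 428) (log2 -0.59 ± 0.143), Pcp4l1 603 to 761 CPM (median 711) and 457 to 679 CPM (median 639) (log2 -0.19 ± 0.105) and Ensa 292 to 407 CPM (median 368) and 319.7 to 436 CPM (median 389) (log2 0.10 ± 0.107), with overlap in each. Of the 2 genes named in the choice Arpp21 had the smaller difference, and Pcp4 came next below it. These values were not tested, and the share of genes called in this contrast, 0.0279%, is given only for scale. Of the striatal projection neuron markers, 9 of 9 had a negative log2. Their summed level was 3287, 4019, 3942, 3979, 4229.8 and 4217 CPM in controls and 2106, 2175, 2823, 3010.1, 2783 and 2778 in HD libraries. Penk was most abundant and none was at 0. Markers of several other cells were all negative too: astrocytes (5 of 5, -0.42 in the median, against -0.44 for the striatal list), oligodendrocytes (5 of 5, -0.24), interneurons (5 of 5, -0.071), vGluT2 neurons (4 of 4, -0.22) and cortical and hippocampal glutamatergic neurons (4 of 4, -0.27). Microglia markers were all positive (5 of 5, 0.84). Fewer cells of a type and less RNA per cell cannot be told apart in these samples, and the markers' part in these values was not tested.

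**Figure D3:**
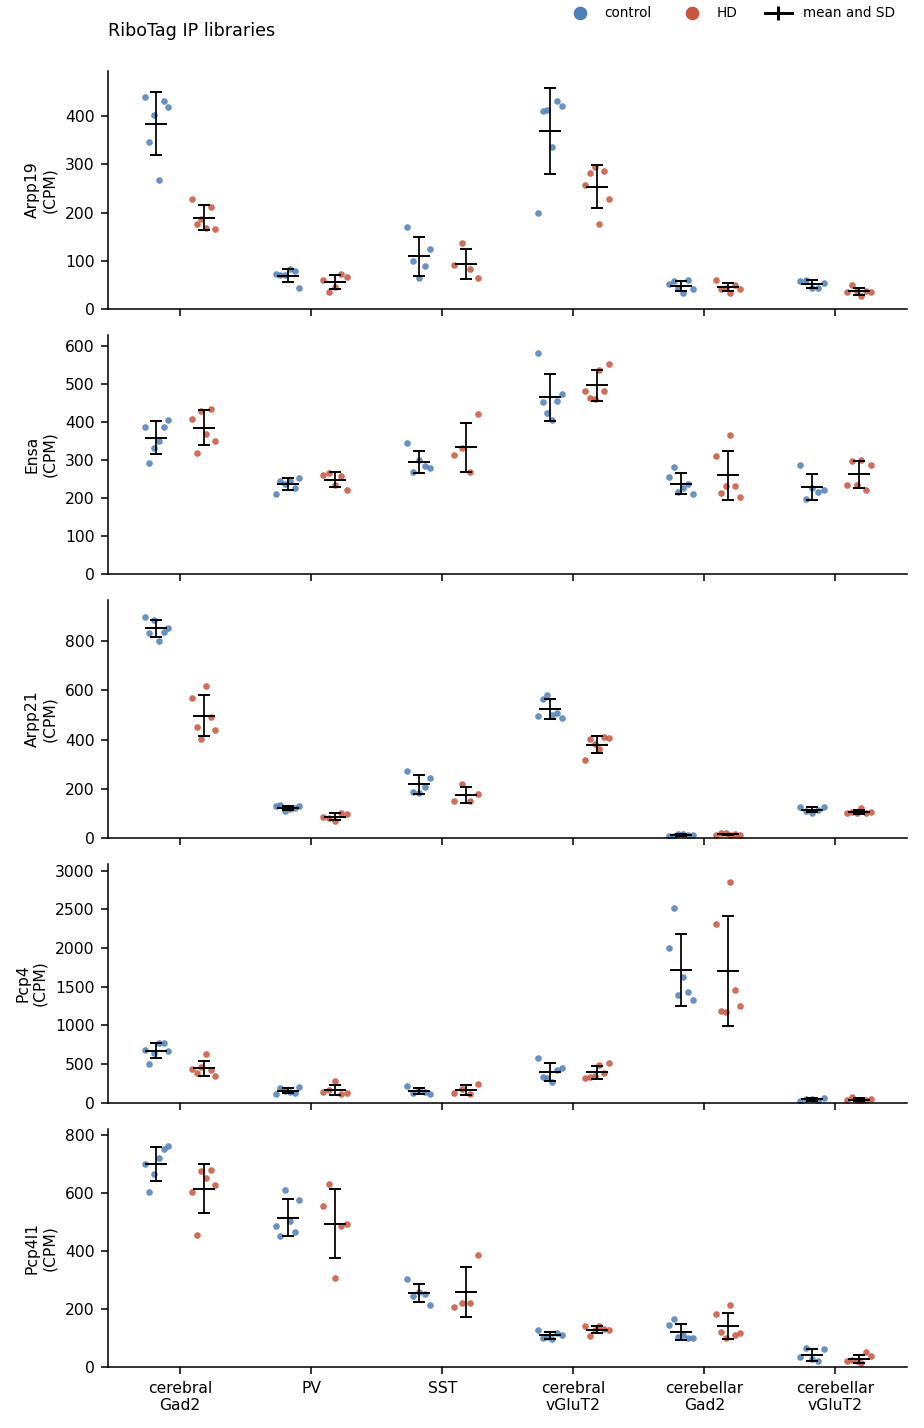
CPM of the 5 genes in each IP library of control and HD mice, by Cre line and brain region.

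Arpp21 was lower in HD in every other cerebral IP by value, and none of these differences passed edgeR's test. In PV IPs it was 111 to 134 CPM (median 125) in 6 controls and 87.6, 82.6, 69.0, 103 and 97.5 CPM in 5 HD libraries, all 5 below every control (-0.50 ± 0.102, edgeR adjusted p 0.214). In cerebral vGluT2 IPs all 6 HD libraries (317 to 411 CPM (median 391)) lay below all 6 controls (488 to 581 CPM (median 504); -0.46 ± 0.0825, edgeR adjusted p 0.147). In SST IPs controls were at 274, 187, 184, 206 and 245 CPM and HD at 151, 220.1, 153 and 179 (-0.32 ± 0.176), with overlap. In these 3 contrasts edgeR called no member, and 0.034% of genes in PV, 0.0% in SST (0 genes, 207 at unadjusted p under 0.05, 2 by DESeq2) and 0.00697% in cerebral vGluT2 IPs. Unadjusted p was under 0.05 for 1, 0 and 3 of the 5, and DESeq2 called 1, 0 and 1 of them, each time Arpp21 (-0.49 with DESeq2 adjusted p 0.00598 in PV, -0.46 with DESeq2 adjusted p 5.5e-04 in cerebral vGluT2). The call for Arpp21 thus depends on the tool. Without HD replicate 3 of the PV IPs Arpp21 was -0.43 (edgeR adjusted p 0.309).

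Markers of striatal projection neurons, which are rich in Arpp21, were lower by value in the same libraries, and so were those of some other cells. Summed over 9 markers they were 308, 291, 285, 298, 328 and 331 CPM in control and 215, 199.7, 232, 278 and 260.1 in HD PV IPs (7 of 9 negative), and 243, 228, 234, 205, 223 and 244 in control and 212, 192, 185, 179, 194 and 145 in HD cerebral vGluT2 IPs (8 of 9 negative, Penk most abundant). In SST IPs the sums were 615, 593, 562, 511 and 485 and 467, 425, 403 and 439 (7 of 9 negative, Penk most abundant). No marker was at 0. Astrocyte markers were negative as a whole in PV (5 of 5, -0.34 in the median, against -0.50 for the striatal list) and cerebral vGluT2 IPs (5 of 5, -0.42, against -0.20), and oligodendrocyte markers in PV IPs (5 of 5, -0.40). In SST IPs the medians were 0.014 for astrocytes, -0.029 for oligodendrocytes and -0.39 for the striatal list. How far any of these cells carry the values of Arpp21 in IPs of other neurons was not tested.

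Of the PP2A-B55 inhibitors, Arpp19 was lower and Ensa higher in HD by value in these IPs, and neither passed either tool's test. Arpp19 was 200.4 to 431 CPM (median 411) in control and 177 to 294 CPM (median 269.6) in HD cerebral vGluT2 IPs (-0.54 ± 0.175, edgeR adjusted p 0.666). In PV IPs it was 44.9 to 83.0 CPM (median 72.1) and, in HD, 60.4, 36.9, 46.1, 74.1 and 66.7 CPM (-0.30 ± 0.185, or -0.24 without HD replicate 3), and in SST IPs 170.3, 101, 64.6, 89.9 and 125 and 92.1, 138, 84.7 and 64.8 CPM (-0.21 ± 0.277). The groups overlapped in all 3. Ensa overlapped in all as well: 406 to 582 CPM (median 455) and 459.5 to 554 CPM (median 483) in cerebral vGluT2 (0.092 ± 0.0927), 211 to 253 CPM (median 240.3) and 260.4, 265, 235, 259 and 221 CPM in PV (0.071 ± 0.0772, or 0.090 without HD replicate 3) and 344, 269, 301, 283 and 279 and 314, 332, 268 and 421 CPM in SST IPs (0.18 ± 0.158).

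Pcp4 and Pcp4l1 showed no change that passed there. Pcp4 was 267 to 581 CPM (median 381) in control and 315 to 514 CPM (median 368) in HD cerebral vGluT2 IPs (0.0032 ± 0.181), and 219, 125, 161, 141 and 119 and 125, 175, 115 and 249.9 CPM in SST IPs (0.12 ± 0.249). In PV IPs it was 118 to 202 CPM (median 147) and 134, 166, 288, 121 and 123 CPM (0.10 ± 0.224), and its sign turned to -0.19 without HD replicate 3, the library with cerebellar transcripts. Pcp4l1 was 452 to 609 CPM (median 495) and 557, 632, 308, 486 and 494 CPM there (-0.058 ± 0.152), turning to 0.073 without the same library. Pcp4l1 was 305, 245, 259.8, 251 and 216 and 207, 220.5, 220.3 and 388 CPM in SST IPs (0.020 ± 0.200), and in cerebral vGluT2 IPs 98.5 to 128 CPM (median 109) and 108 to 144 CPM (median 130.1), with 5 of 6 HD libraries above every control (0.24 ± 0.0940, edgeR adjusted p 0.677).

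In the cerebellum edgeR called no member in the IPs. Cerebellar Gad2 IPs, where edgeR called 0.0142% of genes, had 0 of 5 at unadjusted p under 0.05 and 0 with DESeq2. Pcp4, at its highest level here, was 1333 to 2514 CPM (median 1525) in control and 1171 to 2855 CPM (median 1356) in HD (-0.0091 ± 0.238), and Pcp4l1 100.4 to 168 CPM (median 108) and 100.4 to 215 CPM (median 120.1) (0.22 ± 0.201). The others overlapped too: Arpp19 33.2 to 60.7 CPM (median 49.0) and 34.8 to 60.5 CPM (median 43.7) (-0.089 ± 0.162), Ensa 211 to 283 CPM (median 232) and 203 to 367 CPM (median 231) (0.12 ± 0.148) and Arpp21 9.95 to 19.4 CPM (median 13.3) and 13.5 to 20.1 CPM (median 15.2) (0.22 ± 0.170). None of the 5 thus passed in the Purkinje-rich IPs, with an SE of 0.238 for Pcp4.

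Cerebellar vGluT2 IPs, where edgeR called 2.11% of genes, had Arpp19 nearest to a call: 58.4, 60.4, 44.1, 45.4 and 54.2 CPM in controls and 27.9 to 51.5 CPM (median 36.8) in HD, with 5 of 6 HD libraries below every control (-0.48 ± 0.144, edgeR adjusted p 0.118). DESeq2 called it (-0.49, DESeq2 adjusted p 0.0440), it alone had unadjusted p under 0.05, and without HD replicate 2 edgeR called it too (-0.59, edgeR adjusted p 0.0343). Of 7 granule cell markers 3 fell in these IPs by edgeR's test and 7 of 7 were negative. Their summed level was 13013, 11897, 12194, 11904 and 9655 CPM in controls and 7953, 7643, 8415, 7196, 7594 and 6683 in HD. Cbln3 was most abundant and none was at 0. Their part in the values of Arpp19 was not tested. Arpp21 (129, 111, 104, 114 and 125 CPM and 101 to 124 CPM (median 105); -0.12 ± 0.0956), Ensa (286, 198, 225, 217 and 219.9 CPM and 221 to 299 CPM (median 261); 0.19 ± 0.123), Pcp4 (27.2, 51.2, 48.6, 30.4 and 67.6 CPM and 30.6 to 77.2 CPM (median 35.4); -0.056 ± 0.272) and Pcp4l1 (35.6, 67.5, 27.9, 21.8 and 63.3 CPM and 16.7 to 52.3 CPM (median 23.8); -0.55 ± 0.337) overlapped.

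Whether the HD effect differs between neurons was tested directly. Between cerebellar and cerebral vGluT2 IPs edgeR called 0.323% of genes and 0 of the 5, with 2 at unadjusted p under 0.05 and 0 with DESeq2: Arpp21 differed by 0.36 ± 0.119 (edgeR adjusted p 0.327) and Pcp4l1 by -0.79 ± 0.366 (edgeR adjusted p 0.637), Arpp19 by 0.076 ± 0.241. Between cerebellar vGluT2 and cerebellar Gad2 IPs (0.107% of genes called) it was 0 of 5 by edgeR, by unadjusted p and by DESeq2, with Arpp19 at -0.41 ± 0.230 and Pcp4l1 at -0.82 ± 0.416. Between PV and cerebral vGluT2 IPs edgeR called 0.0% of genes (319 at unadjusted p under 0.05, 0 by DESeq2), and the 5 gave 0 in each way, with Arpp21 at -0.011 ± 0.127. The cerebellar and cerebral vGluT2 IPs share 11 mice, which these fits do not use. In a fit added after seeing the data, with the mouse as a block over those 11, Arpp21 was 0.39 (edgeR adjusted p 0.336) and Pcp4l1 -0.76 (edgeR adjusted p 0.555). It called 31 genes, against 41 over the same mice with no block and 46 in the main fit, and none of the 5. No difference in the HD effect between these neurons passed for a member in any of these fits.

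In cerebral total RNA, fitted over the Gad2, PV and vGluT2 lines, edgeR called 0.141% of genes and 0 of the 5 members, with 1 at unadjusted p under 0.05 and 1 with DESeq2, Arpp21 in both. Arpp21 was 390.2, 398 and 356 CPM in control and 288, 248 and 305 in HD mice of the Gad2 line, 356, 329 and 295 CPM in control and 242, 307 and 279.8 in HD of the PV line and 336, 328 and 384 CPM in control and 281, 201 and 308 in HD of the vGluT2 line (-0.36 ± 0.0856, edgeR adjusted p 0.143), with 6 of 9 HD libraries below every control. DESeq2 gave -0.36 (DESeq2 adjusted p 0.0114), and with SST total RNA added (345, 337, 353 and 338 CPM in control and 241, 245 and 229 in HD) edgeR gave -0.41 (edgeR adjusted p 9.8e-04). Some of these SST controls were of the Z series, which had no HD mice, so genotype and series are partly mixed in the SST line. By edgeR Arpp21 thus passed with the 4 lines and not with 3, while DESeq2 called it with 3. The Gad2 line libraries came from mice whose cerebral Gad2 IPs chose the genes, so these fits are not independent of that choice. In the PV and vGluT2 lines, from other mice, the log2 ratio of the mean CPM of Arpp21 was -0.24 and -0.41. The 9 striatal projection neuron markers summed to 583, 726 and 735 CPM in control and 403, 477 and 578 in HD mice of the Gad2 line, 744, 741 and 1021 and 679.9, 510.4 and 629 of the PV line and 893, 756 and 731 and 482, 449 and 498 of the vGluT2 line (Penk most abundant, none at 0), and their part was not tested.

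The other 4 overlapped between HD and control in cerebral total RNA as well. Arpp19 was 242, 142 and 105 CPM in control and 193, 102 and 79.7 in HD (Gad2 line), 144, 176 and 70.3 CPM in control and 82.7, 132 and 156 in HD (PV line) and 101, 102 and 166 CPM in control and 184, 68.3 and 139.99 in HD (vGluT2 line), with -0.12 ± 0.248 over the lines. Ensa gave -0.0026 ± 0.0861 (290.4, 369.9 and 367 CPM in control and 289, 331 and 407 in HD, Gad2 line; 325, 329.6 and 394 CPM in control and 384, 353 and 360.2 in HD, PV line; 404, 379.6 and 303 CPM in control and 297, 382 and 353 in HD, vGluT2 line). Neither inhibitor was called. Pcp4 gave -0.21 ± 0.105 (253, 202 and 289 CPM in control and 215, 175 and 225 in HD; 186, 186 and 277 CPM in control and 214, 194 and 179 in HD; 188, 278 and 203 CPM in control and 204, 197 and 172 in HD, same order of lines) and Pcp4l1 -0.20 ± 0.163 (188, 272 and 313 CPM in control and 179, 234 and 282 in HD; 226, 243 and 359 CPM in control and 394, 173 and 183 in HD; 325, 289 and 233 CPM in control and 224, 249.8 and 207 in HD).

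**Figure D4:**
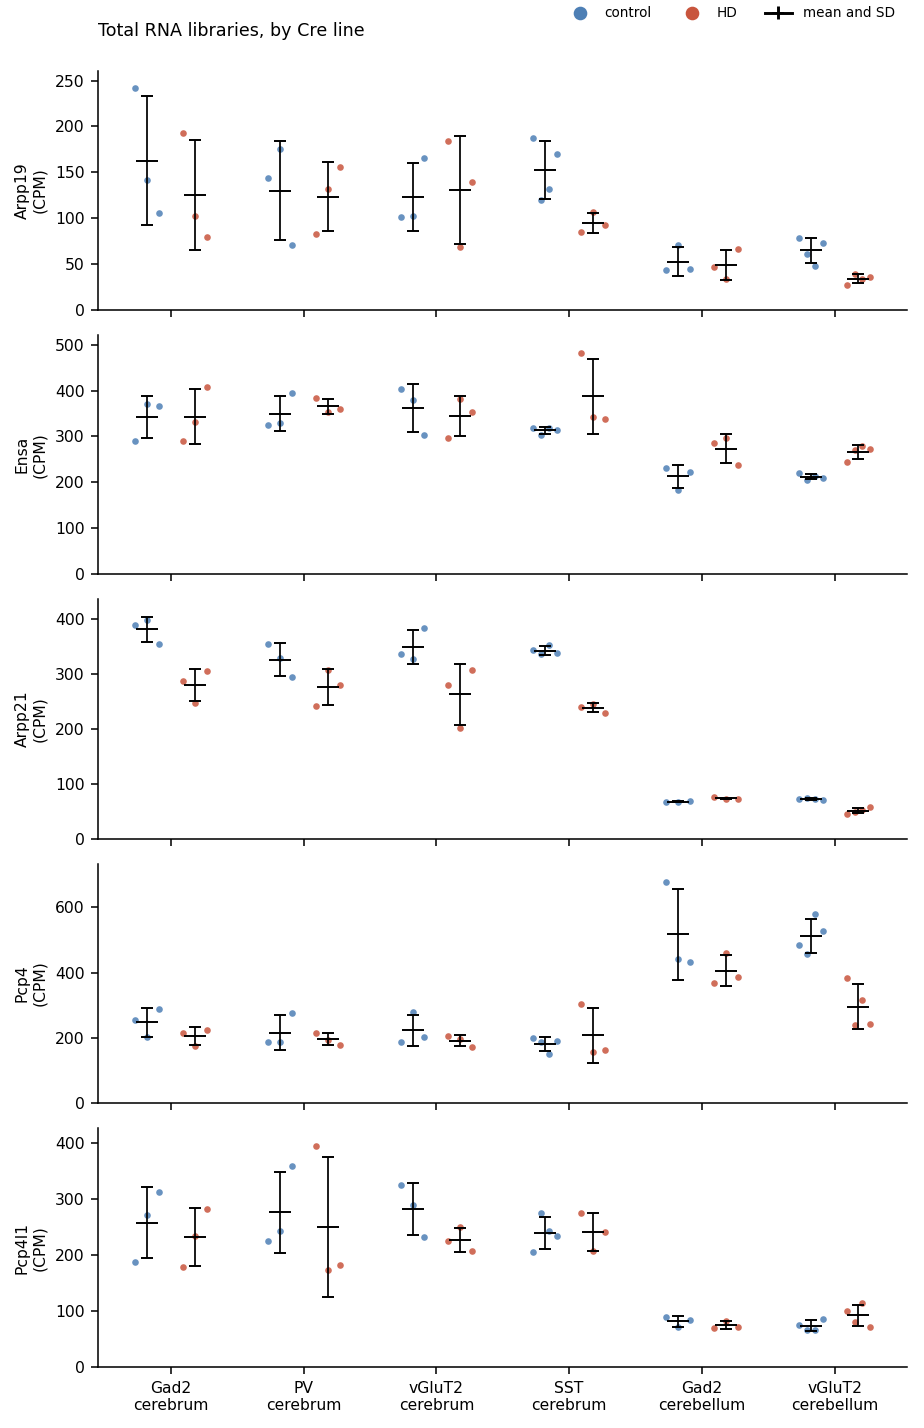
CPM of the 5 genes in each total RNA library of control and HD mice, by Cre line and brain region.

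Cerebellar total RNA was the only HD contrast tested in which edgeR called any of the 5: Ensa rose and Pcp4 fell, 2 of 5 where edgeR called 24.5% of all genes, so a call is common there too. That share rests on 3544 genes, a number that moved widely when single libraries were left out, as given below. With a replicate block within the line edgeR called 9 genes and neither Ensa nor Pcp4 (edgeR adjusted p 0.121 for both). Ensa was 232, 184 and 223 CPM in control and 286, 296 and 238 in HD mice of the Gad2 line and 219.6, 205, 214 and 210.1 CPM in control and 245, 270.0, 279 and 272 in HD of the vGluT2 line, all 7 HD libraries above every control (0.34 ± 0.0851, edgeR adjusted p 0.0280). Pcp4 was 679, 441 and 431 CPM in control and 369, 460.4 and 388 in HD (Gad2 line) and 485, 458, 579 and 528 CPM in control and 384, 239, 315 and 242 in HD (vGluT2 line), 6 of 7 HD libraries below every control (-0.61 ± 0.149, edgeR adjusted p 0.0280). Of the rest, Arpp19 was 43.2, 70.7 and 44.0 CPM in control and 46.9, 34.0 and 66.1 in HD (Gad2 line) and 78.1, 60.6, 47.7 and 72.8 CPM in control and 26.9, 39.1, 34.2 and 36.1 in HD (vGluT2 line; -0.58 ± 0.203, edgeR adjusted p 0.0509), called by DESeq2 (-0.58, DESeq2 adjusted p 0.0231) and by edgeR without control Gad2 line replicate 1 (-0.67, edgeR adjusted p 0.0256), control replicate 3 (-0.67, edgeR adjusted p 0.0252) or HD replicate 3 (-0.72, edgeR adjusted p 0.00455). Arpp21 was 66.5, 66.6 and 68.5 CPM in control and 75.1, 72.5 and 72.4 in HD (Gad2 line) and 72.5, 74.0, 71.9 and 69.7 CPM in control and 45.1, 49.2, 52.4 and 56.97 in HD (vGluT2 line; -0.23 ± 0.114), and Pcp4l1 89.4, 71.3 and 85.05 CPM in control and 70.5, 83.2 and 71.3 in HD and 75.8, 67.3, 67.2 and 86.8 CPM in control and 101, 81.1, 115 and 72.7 in HD (0.13 ± 0.130).

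The lines did not carry this contrast alike. In an analysis added after seeing the data, the Gad2 line alone (3 against 3) called 0 genes, with Ensa at 0.35 and Pcp4 at -0.36, neither called, and the vGluT2 line alone (4 against 4) called 7565, Arpp19 (-0.93, edgeR adjusted p 0.00210) and Arpp21 (-0.50, edgeR adjusted p 0.00451) among them. Ensa (0.33) and Pcp4 (-0.79) kept their calls in that line. Arpp21 was 0.12 in the Gad2 line alone, in the other direction. The call of Ensa was lost without any 1 of 9 libraries (Gad2 line control 2 and HD 2; vGluT2 line controls 1, 2, 3 and 4 and HD 2, 3 and 4), with the log2 staying between 0.31 and 0.37 and edgeR adjusted p reaching 0.0653. That of Pcp4 was lost without any 1 of 8 (the same but Gad2 line control 2), between -0.67 and -0.54 with edgeR adjusted p up to 0.0651. In the HD vGluT2 line oligodendrocyte markers summed to 3097, 3121, 3787 and 2796 CPM against 4314, 4415, 4308 and 5245 (Mbp most abundant), Purkinje cell markers to 4526, 4106, 3828 and 4225 against 6129, 6563, 6836 and 6755 (Rgs8 most abundant in HD, Itpr1 in controls) and granule cell markers to 3647, 4409, 3526 and 5141 against 6892, 5468, 5041 and 5073 (Cbln3), with none at 0. Other markers went up: those of microglia summed to 131 ± 7.70 CPM (SD) against 85.1 ± 4.76, and over both lines 4 of 5 were positive (median 0.51), 3 of them called. Over both lines the oligodendrocyte list went both ways (2 positive, 3 negative, median -0.071). Their part in these calls was not tested.

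Partners of the 5 were followed in 4 lists of 35 genes in all: Greatwall and PP2A-B55, the PKA pathway, the calmodulin pathway, and R3H relatives with the cap-binding factors of eIF4F. In HD cerebral Gad2 IPs the medians were -0.16, -0.034, -0.13 and -0.031 in that order (all genes -0.0062), and edgeR called 0 of 35, with 6 at unadjusted p under 0.05 (1313 of 14342 genes in all) and 1 by DESeq2 (Camk4). Ppp1r1b, the PKA target DARPP-32 of striatal projection neurons, was at -0.58, R3hdm1, an R3H-domain relative of Arpp21, at -0.47 and Mastl at -0.82 ± 0.537. Mastl was of the other sign in PV (0.19), SST (0.80), cerebral vGluT2 (0.061) and cerebellar Gad2 IPs (0.23) and in cerebral total RNA (0.79). It was of the same sign in cerebellar vGluT2 IPs (-0.39) and cerebellar total RNA (-0.80). None of these was called by edgeR, and the last was called by DESeq2. By edgeR no partner was called in PV (0 of 35, 2 at unadjusted p under 0.05, 0 by DESeq2), SST (0, 2 and 0), cerebral vGluT2 (0, 7 and 1, Ppp1r1b) or cerebellar Gad2 IPs (0, 0 and 0). Over all genes unadjusted p was under 0.05 for 630 of 14713, 207 of 14689, 1045 of 14354 and 324 of 14098 in these contrasts. The PKA medians were -0.011, -0.077, -0.065 and -0.020 against 0.0023, 0.0081, -0.018 and 0.0037 over all genes, and Ppp1r1b was -0.34 (-0.76 without HD replicate 3 of the PV IPs), -0.33, -0.54 and -0.24.

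Cerebellar vGluT2 IPs had 2 of 35 partners called, both lower, where edgeR called 2.11% of all genes: Camk4, a calcium/calmodulin kinase of granule cells, fell by 0.67 (edgeR adjusted p 0.00501) and Ppp1r1b by 0.62 (edgeR adjusted p 0.0180). The call of Ppp1r1b was lost without control replicate 1 (-0.56), control replicate 3 (-0.59) or HD replicate 1 (-0.59), and with all IP libraries in 1 fit (-0.67). All 9 calmodulin partners were negative (median -0.23, all genes -0.011), and the Greatwall list was at 0.15. Of the 9, 4 were at unadjusted p under 0.05 (2090 of 13487 genes in all). Granule cell markers were lower in the same libraries, as given above, and their part in these values was not tested. In cerebellar total RNA 8 of 35 were called (16 at unadjusted p under 0.05, 6423 of 14477 genes in all, 13 by DESeq2), where edgeR called 24.5% of all genes, so the lists do not stand out there. Ppp2r1a, the scaffold of PP2A, rose by 0.61, Gng7 by 0.58, Prkar1b by 0.57 and Prkaca by 0.38, and Camk4 (-0.99), Gnal (-0.63), R3hdm1 (-0.58) and Ppp3ca (-0.54) fell. In the Gad2 line alone, where edgeR called 0 genes, none of the 8 was called. In the vGluT2 line alone, where it called 7565 genes against 3544 in the main fit, all were. The 8 were chosen by that main fit, which holds the same libraries. In that order of lines Ppp2r1a was 0.14 and 0.96, Gng7 0.29 and 0.79, Prkar1b 0.14 and 0.89, and Prkaca 0.065 and 0.61. Camk4 was -0.65 and -1.25, Gnal -0.17 and -0.99, R3hdm1 -0.12 and -0.93, and Ppp3ca -0.23 and -0.78. The signs were thus alike in the 2 lines, and the Gad2 line alone gave none of the calls. Leaving out single libraries also ended each of these calls but that of Camk4: the Gad2 line HD 2, vGluT2 line controls 1, 2, 3 and 4 and HD 2, 3 and 4 for all 7, the Gad2 line control 2 for all but Gng7, and vGluT2 line HD 1 for Prkaca and Ppp3ca. Cerebral total RNA had 0 of 35 called by edgeR, 4 at unadjusted p under 0.05 (984 of 14871 genes in all) and 1 by DESeq2 (Adcy5).

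In control IPs the partners differed between cell types. Ppp1r1b was enriched in cerebral Gad2 (2.14) and depleted in PV (-2.90) and SST IPs (-2.09), with the signs of Arpp21. In cerebral vGluT2 (-1.59), cerebellar Gad2 (1.07) and cerebellar vGluT2 IPs (-2.08) its sign was the opposite of that of Arpp21, all called. R3hdm1 was enriched in cerebral vGluT2 IPs (1.73), and Nrgn, an IQ-motif calmodulin binder as Pcp4 is, was depleted in PV (-3.31), SST (-2.29) and cerebral Gad2 IPs (-0.63) and enriched in cerebral vGluT2 IPs (0.78). In cerebral Gad2 IPs its sign was thus the opposite of that of Pcp4, and its call there was lost with total RNA of the same line and in both fits of the 3 mice. Of the 35 partners 25 were called in cerebral Gad2 IPs (62.6% of all genes), 20 in PV (69.2%), 22 in SST (61.9%) and 26 in cerebral vGluT2 IPs (64.0%). In the cerebellum it was 29 in Gad2 (57.1%) and 25 in vGluT2 IPs (56.7%). With calls so common these counts say little of the partners. Camk4 was enriched in cerebellar vGluT2 (1.13) and depleted in cerebellar Gad2 IPs (-1.22), the reverse of Pcp4. In cerebral Gad2 (1.14) and cerebral vGluT2 IPs (1.41) it was enriched, with the sign of Pcp4.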

How the data were processed

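The deposited values are estimated counts per gene, which the authors made by aligning reads to GRCm38.p6 with STAR and quantifying them with Salmon; they were rounded here, as 8.57% are not whole. Mouse genes were joined to GENCODE M21 by ID (55141 of 55401 matched), and 92 ERCC spike-ins, at most 4.45% of a library, were left out. Each comparison used edgeR 4.0.16 in R 4.3.3 (quasi-likelihood test, TMM factors over protein-coding genes with a mean count above 10, library sizes over all mouse genes) with Benjamini-Hochberg adjustment over all genes tested, called at 0.05 or less, and DESeq2 1.42.0 as an alternative. CPM are TMM-normalised. An IP and its total RNA share mice by the labels (36 of 45 mice gave more than 1 library), which is where the pairing by mouse comes from. Levels were compared by exact permutation, and the steps were tested on simulated data. Members and lists were chosen with earlier results of these data known. Named partners in the HD contrasts are those called, up to 4 per list by size, or else Mastl, Ppp1r1b, Nrgn and R3hdm1. In the paragraph on partners in control IPs only Ppp1r1b, R3hdm1, Nrgn and Camk4 are named, and some called partners with larger ratios are not. Results for some single markers are not reported here. Depth ran from 21905238 to 107753596 counts a library.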

Additional observations from a re-analysis of the deposited data

Results flagged for a closer look

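Of 75 groups of 4 to 10 libraries, 5 held 1 library far from the others by Dixon's gap test, where chance alone would flag about 1 in 20 groups. Arpp19 in replicate 6 of control PV IPs was at 44.9 CPM, below the other libraries at 70.3 to 83.0. Arpp21 in replicate 4 of HD cerebellar vGluT2 IPs was at 124 CPM, above the other libraries at 101 to 108. Pcp4 in replicate 3 of HD PV IPs was at 288 CPM, above the other libraries at 121 to 166. Pcp4l1 in replicate 2 of HD cerebral Gad2 IPs was at 457 CPM, below the other libraries at 604 to 679. Pcp4l1 in replicate 4 of HD SST IPs was at 388 CPM, above the other libraries at 207 to 220.5.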

How the results depend on the processing

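Of the values recomputed under other choices, 3742 counted as unchanged, 202 lost a call, 21 gained one, 136 changed sign and 107 counts or levels moved. For tested values unchanged means the same direction and side of the threshold, or the same direction alone where no adjusted p was given. For gene counts, levels per length and the untested values of HD cerebral Gad2 IPs it means within a set margin. Groups of 4 to 6 libraries limit the HD comparisons of IPs, and 9 and 7 libraries per genotype those of cerebral and cerebellar total RNA: small differences cannot be seen. All changes of sign were in values that had not passed in the main fit. The causes were not tested.

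With DESeq2's Wald test in place of edgeR, the genes called were 75 (HD cerebral Gad2 IPs), 42 (HD PV IPs), 2 (HD SST IPs), 25 (HD cerebral vGluT2 IPs), 22 (HD cerebellar Gad2 IPs), 665 (HD cerebellar vGluT2 IPs), 119 (HD cerebral total RNA), 126 (HD effect in cerebellar minus cerebral vGluT2 IPs) and 73 (HD effect in cerebellar vGluT2 minus cerebellar Gad2 IPs). Calls were gained by Arpp21 in HD PV IPs (-0.49), Arpp21 in HD cerebral vGluT2 IPs (-0.46) and Arpp19 in HD cerebellar vGluT2 IPs (-0.49). The threshold was met by Arpp21 in HD cerebral total RNA (-0.36) and Arpp19 in HD cerebellar total RNA (-0.58). The sign changed for Pcp4 in HD cerebellar Gad2 IPs (0.010), Ensa over total RNA in cerebral Gad2 IPs (-0.016) and Ensa's HD effect in PV minus cerebral vGluT2 IPs (-0.022). With DESeq2's size factors, the genes called were 0 (HD cerebral vGluT2 IPs) and 1 (HD cerebellar Gad2 IPs). Calls were gained by Arpp19 in HD cerebellar total RNA (-0.58). The sign turned in Pcp4 in HD cerebellar Gad2 IPs (0.010), Ensa over total RNA in cerebral Gad2 IPs (-0.016) and Ensa's HD effect in PV minus cerebral vGluT2 IPs (-0.022). The direction changed for the step of Arpp21 from cerebellar vGluT2 to PV (-0.023). With no filter on the mean count, the genes called were 0 (HD cerebral vGluT2 IPs) and 1 (HD cerebellar Gad2 IPs). The sign changed for Pcp4 in HD cerebellar Gad2 IPs (0.0037), Ensa's HD effect in PV minus cerebral vGluT2 IPs (-0.018) and Nrgn in HD cerebral vGluT2 IPs (0.0083). With all gene types kept, the genes called were 0 (HD cerebral vGluT2 IPs) and 0 (HD cerebellar Gad2 IPs). The sign turned in Pcp4 in HD cerebellar Gad2 IPs (0.0022), Ensa's HD effect in PV minus cerebral vGluT2 IPs (-0.010) and Nrgn in HD cerebral vGluT2 IPs (0.0062). With all IP libraries in 1 fit, the genes called were 20 (HD cerebral Gad2 IPs), 0 (HD PV IPs), 5 (HD cerebral vGluT2 IPs), 13 (HD cerebellar Gad2 IPs) and 548 (HD cerebellar vGluT2 IPs). The direction changed for Pcp4 in HD cerebral vGluT2 IPs (-0.012), Pcp4 in HD cerebellar Gad2 IPs (0.041) and R3hdm1 in HD cerebellar Gad2 IPs (0.030).

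With SST total RNA added, the genes called were 96 (HD cerebral total RNA). The threshold was met by Arpp21 in HD cerebral total RNA (-0.41). The sign changed for Ensa in HD cerebral total RNA (0.078). With the Gad2 line left out, the genes called were 3 (HD cerebral total RNA). The sign turned in Arpp19 in HD cerebral total RNA (0.0025) and R3hdm1 in HD cerebral total RNA (0.049). With total RNA of the same line only, the genes called were 4790 (IP over total RNA, cerebral Gad2 IPs). Calls were lost by Ensa over total RNA in SST IPs (-0.27), Pcp4 over total RNA in SST IPs (-0.43) and Ensa over total RNA in cerebral vGluT2 IPs (0.34). Calls were gained by Arpp19 over total RNA in SST IPs (-0.65). With both genotypes, the threshold was met by Arpp19 over total RNA in SST IPs (-0.48). The direction changed for Arpp19 over total RNA in cerebellar Gad2 IPs (0.049). With CPM without TMM, the threshold was missed by the step of Ensa from cerebral Gad2 to SST (0.25). Calls were gained by the step of Ensa from SST to cerebellar Gad2 (0.37). The sign changed for the step of Arpp19 from cerebral vGluT2 to cerebral Gad2 (-0.053), the step of Arpp21 from cerebellar vGluT2 to PV (-0.11) and the step of Ensa from cerebellar vGluT2 to PV (-0.066). With the longest annotated transcript for length, the mean level per kb over the control IPs changed for Arpp19 (42.7), Arpp21 (57.5) and Ensa (78.6). The mean level per kb over the control IPs changed for Pcp4 (825). Chosen after seeing the data, the cerebellar total RNA of each line was fitted alone. With the Gad2 line alone, the genes called were 0 (HD cerebellar total RNA). Calls were lost by Ensa in HD cerebellar total RNA (0.35) and Pcp4 in HD cerebellar total RNA (-0.36). The sign turned in Arpp21 in HD cerebellar total RNA (0.12) and Pcp4l1 in HD cerebellar total RNA (-0.14). With the vGluT2 line alone, the genes called were 7565 (HD cerebellar total RNA). The threshold was met by Arpp19 in HD cerebellar total RNA (-0.93) and Arpp21 in HD cerebellar total RNA (-0.50).

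HD and control libraries share only replicate numbers, and the labels do not state whether these pair mice. In the Gad2 line same-numbered IPs came from mice with neighbouring codes. Same-numbered libraries deviated together (r over 0.1) in 4 of 6 (HD cerebral Gad2 IPs), 1 of 4 (HD PV IPs), 1 of 4 (HD SST IPs), 4 of 5 (HD cerebral vGluT2 IPs), 3 of 5 (HD cerebellar Gad2 IPs) and 2 of 5 (HD cerebellar vGluT2 IPs). Each correlated best with its own number in 3, 1, 1, 1, 3 and 1 of them, in that order. In the IPs a call lost under this block is not read as a weaker effect. Total RNA libraries were not checked in this way, so whether replicate numbers pair them was not tested. With the replicate number as a block, the genes called were 9 (HD cerebral Gad2 IPs), 0 (HD PV IPs), 0 (HD cerebral vGluT2 IPs), 0 (HD cerebellar Gad2 IPs) and 109 (HD cerebellar vGluT2 IPs). The direction changed for Pcp4 in HD SST IPs (-0.014), Pcp4l1 in HD SST IPs (-0.10) and Pcp4 in HD cerebral vGluT2 IPs (-0.0090). The sign changed for Mastl in HD PV IPs (-0.21), Nrgn in HD PV IPs (0.0023) and Mastl in HD cerebellar Gad2 IPs (-0.011). The call of Ppp1r1b in HD cerebellar vGluT2 IPs was lost as well. With a replicate block within the line, the genes called were 9 (HD cerebellar total RNA). The threshold was missed by Ensa in HD cerebellar total RNA (0.34) and Pcp4 in HD cerebellar total RNA (-0.61). The 8 partner calls there were lost too. The mouse, shared by an IP and total RNA of its line, does pair those libraries. With the mouse as a block, the genes called were 2494 (IP over total RNA, cerebral Gad2 IPs) and 4558 (IP over total RNA, cerebellar Gad2 IPs). Calls were lost by Pcp4 over total RNA in PV IPs (-0.37), Ensa over total RNA in SST IPs (-0.26) and Pcp4 over total RNA in SST IPs (-0.56). The threshold was missed by Ensa over total RNA in cerebral vGluT2 IPs (0.33), Pcp4l1 over total RNA in cerebellar Gad2 IPs (0.37) and Pcp4l1 over total RNA in cerebellar vGluT2 IPs (-0.58). It changed no other call of a member. Chosen after seeing the data, the mice of that fit were also fitted without the block. With the same 3 mice and no block, the genes called were 2069 (IP over total RNA, cerebral Gad2 IPs), 5599 (IP over total RNA, PV IPs), 5394 (IP over total RNA, SST IPs) and 4683 (IP over total RNA, cerebellar Gad2 IPs). Calls were lost by Arpp19 over total RNA in PV IPs (-1.06), Pcp4 over total RNA in PV IPs (-0.37) and Ensa over total RNA in SST IPs (-0.25). The threshold was missed by Pcp4 over total RNA in SST IPs (-0.49), Ensa over total RNA in cerebral vGluT2 IPs (0.32) and Pcp4l1 over total RNA in cerebellar Gad2 IPs (0.37). Calls were lost by Pcp4l1 over total RNA in cerebellar vGluT2 IPs (-0.43). The mouse also pairs cerebellar and cerebral vGluT2 IPs, and as a block there it changed no call or sign of a member.

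Leaving out 1 library at a time, these ranges span a change of call, sign or count. Genes called ran as follows: HD cerebral Gad2 IPs 3 to 12, HD PV IPs 0 to 4, HD SST IPs 0 to 1, HD cerebral vGluT2 IPs 0 to 1, HD cerebellar Gad2 IPs 0 to 3, HD cerebellar vGluT2 IPs 149 to 255, HD cerebral total RNA 4 to 43, HD cerebellar total RNA 96 to 7408 and HD effect in cerebellar vGluT2 minus cerebellar Gad2 IPs 13 to 25. For the members these were Pcp4 in HD PV IPs -0.19 to 0.20, Pcp4l1 in HD PV IPs -0.16 to 0.073, Pcp4 in HD SST IPs -0.15 to 0.28 and Pcp4l1 in HD SST IPs -0.24 to 0.11. Next came Pcp4 in HD cerebral vGluT2 IPs -0.088 to 0.14, Ensa in HD cerebellar Gad2 IPs -0.00084 to 0.20, Pcp4 in HD cerebellar Gad2 IPs -0.22 to 0.15 and Arpp19 in HD cerebellar vGluT2 IPs -0.59 to -0.40. Others were Pcp4 in HD cerebellar vGluT2 IPs -0.30 to 0.14, Arpp19 in HD cerebral total RNA -0.24 to 0.0061, Ensa in HD cerebral total RNA -0.044 to 0.027 and Arpp19 in HD cerebellar total RNA -0.72 to -0.49. Then came Ensa in HD cerebellar total RNA 0.31 to 0.37, Pcp4 in HD cerebellar total RNA -0.67 to -0.54, Ensa over total RNA in cerebral Gad2 IPs -0.026 to 0.046 and Arpp19 over total RNA in SST IPs -0.73 to -0.34. More were Ensa over total RNA in cerebellar Gad2 IPs 0.15 to 0.27, Arpp19's HD effect in cerebellar minus cerebral vGluT2 IPs -0.035 to 0.20, Pcp4's HD effect in cerebellar minus cerebral vGluT2 IPs -0.30 to 0.090 and Ensa's HD effect in cerebellar vGluT2 minus cerebellar Gad2 IPs -0.023 to 0.19. Last came Pcp4's HD effect in cerebellar vGluT2 minus cerebellar Gad2 IPs -0.30 to 0.16, Arpp21's HD effect in PV minus cerebral vGluT2 IPs -0.070 to 0.068, Ensa's HD effect in PV minus cerebral vGluT2 IPs -0.078 to 0.037 and Pcp4's HD effect in PV minus cerebral vGluT2 IPs -0.17 to 0.22.

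Among the partners the ranges were Mastl in HD PV IPs -0.062 to 0.30, Nrgn in HD PV IPs -0.25 to 0.0079, Mastl in HD cerebral vGluT2 IPs -0.19 to 0.34 and Nrgn in HD cerebral vGluT2 IPs -0.062 to 0.11. Next were R3hdm1 in HD cerebellar Gad2 IPs -0.038 to 0.024, Ppp1r1b in HD cerebellar vGluT2 IPs -0.69 to -0.56, R3hdm1 in HD cerebral total RNA -0.14 to 0.069 and Ppp2r1a in HD cerebellar total RNA 0.55 to 0.70. More were Gnal in HD cerebellar total RNA -0.75 to -0.58, Gng7 in HD cerebellar total RNA 0.54 to 0.66, Prkar1b in HD cerebellar total RNA 0.51 to 0.65 and Prkaca in HD cerebellar total RNA 0.30 to 0.45. Also Ppp3ca in HD cerebellar total RNA -0.64 to -0.43, R3hdm1 in HD cerebellar total RNA -0.69 to -0.48, Ppp2r1b over total RNA in cerebral Gad2 IPs 0.36 to 0.57 and Eif4e over total RNA in PV IPs 0.39 to 0.54. Next stood Ppp3ca over total RNA in SST IPs 0.41 to 0.65, Ppp2r1b over total RNA in cerebral vGluT2 IPs -0.63 to -0.40, Mastl over total RNA in cerebellar Gad2 IPs -0.80 to -0.65 and Eif4g1 over total RNA in cerebellar Gad2 IPs 0.38 to 0.57. Beside them were R3hdm1 over total RNA in cerebellar Gad2 IPs 0.21 to 0.32 and Eif4g3 over total RNA in cerebellar vGluT2 IPs 0.37 to 0.50. For levels, the step of Arpp19 from cerebral vGluT2 to cerebral Gad2 -0.071 to 0.19, the step of Arpp19 from SST to PV 0.34 to 0.70, the step of Arpp19 from PV to cerebellar vGluT2 0.23 to 0.41 and the step of Arpp19 from cerebellar vGluT2 to cerebellar Gad2 -0.0043 to 0.18. More levels were the step of Arpp21 from cerebellar vGluT2 to PV -0.029 to 0.054, the step of Ensa from cerebellar vGluT2 to PV -0.031 to 0.10 and the step of Pcp4l1 from cerebellar Gad2 to cerebral vGluT2 -0.012 to 0.13.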

Other observations

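Cerebral SST total RNA entered no contrast of its own. There Arpp19 was at 188, 119.6, 132 and 169.8 CPM in control and 84.9, 107 and 92.4 in HD mice, and Ensa at 318, 302, 318 and 315 and 482, 342 and 338. Pcp4 was at 198, 186, 151 and 189 and 305, 155 and 161 and Pcp4l1 at 205, 274, 242 and 234 and 275, 208 and 240.3. These differences were not tested.

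Microglia markers (5) summed to 86.2 ± 27.0 CPM (SD, n = 6) in control and 142 ± 67.2 in HD cerebral Gad2 IPs, with Csf1r most abundant, and all 5 were positive in HD by value with none called.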
